A study of Mus musculus with 16 samples.

Results

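The TGF-beta genes described here were 10 of the 50686 gene models counted in RNA sequencing of BCR-ABL1p185+ mouse bone marrow lines: the ligand gene *Tgfb1*, the latent TGF-beta binding protein gene *Ltbp2*, the receptor genes *Tgfbr1* and *Tgfbr2*, the receptor-regulated *Smad2* and *Smad3*, the common-partner *Smad4*, the inhibitory *Smad7*, and the corepressor genes *Ski* and *Skil*. They were chosen from the pathway because CDK8 phosphorylates the linker of SMAD proteins, and *Tgfbr2* and *Ltbp2* in particular were selected on their higher counts with Senexin B in these same libraries. Differences between Senexin B and DMSO, and their interaction with genotype, are therefore given for the 10 genes as a description, with no test. All 10 passed the filter on low counts in every comparison.

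The study asked how much of the work of CDK8 in this leukaemia rests on its kinase activity. Bone marrow of C57BL/6N mice was transformed with a retrovirus carrying BCR-ABL1p185, and 4 lines of each genotype were compared: wild-type lines, which in the study's methods carry floxed, undeleted *Cdk8*, and Cdk8-ko lines, in which Vav-Cre had removed the floxed part of *Cdk8* across the blood lineages. Each line was cultured for 48 h with 0.01% DMSO or with 1 µM Senexin B, an inhibitor of CDK8 and of its paralogue CDK19. This gave 4 groups of 4 libraries: wild-type DMSO, wild-type Senexin B, Cdk8-ko DMSO and Cdk8-ko Senexin B. All lines carried the oncogene from a retroviral vector and grew in culture, and the deletion preceded transformation, so the genotypes were compared between separately derived lines, while the treatments were compared within a line.

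The counts of a library summed to at least 13145876 and at most 18349425 (median 15473664 over 16 libraries). Levels are given as TMM-normalised CPM, counts scaled to a common library size, and lines are named in the order 1 to 4. A gene was called at an adjusted p below 0.05 together with a log2 fold change beyond 1 in either direction in edgeR's quasi-likelihood test. Intervals of single counts cover counting error only. Between genotypes, the p-values measure the spread between lines. For Senexin B and the interaction, the main fits do not compare each line with itself. Their p-values therefore do not measure how the treatment difference varies from line to line, and fits that do so are named where printed. In these bulk libraries, fewer cells with a transcript and less transcript per cell cannot be told apart.

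The label of the lines as early B cells was checked against marker genes. All 10 of 10 pro-B markers had a mean of at least 1 CPM, their sum lay between 5940.2 and 9335 CPM in every library, and the most abundant was *Igll1*, a component of the surrogate light chain, at 1234 CPM. Of 6 T cell markers, 1 reached a mean of 1 CPM, the kinase gene *Lck*, and without it the sum was at most 0.139 CPM. Of 6 myeloid markers, 1 did so, the lysozyme gene *Lyz2*, and the myeloid sum was highest in Cdk8-ko DMSO line 1 at 24.8 CPM. Among 3 NK cell markers, *Klrb1c* alone did so, with a summed level of 81.6 CPM in Cdk8-ko Senexin B line 4 and of 20.6 CPM in Cdk8-ko Senexin B line 3 and in Cdk8-ko DMSO line 4. Markers of erythroid cells, of platelets and of stromal cells summed to no more than 2.45 CPM in any library. The part of these markers in the results was not tested.

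TGF-beta is secreted in a latent complex, held by its own propeptide and by binding proteins in the matrix or on the cell surface, and once released it joins a pair of receptor kinases, of which TGFBR2 phosphorylates and activates TGFBR1. TGFBR1 then phosphorylates SMAD2 and SMAD3, which enter the nucleus with SMAD4 and, after further phosphorylation of their linker by CDK8 and CDK9, act on target genes and are marked for turnover; SMAD7 blocks the receptor, and SKI and SKIL recruit corepressors to SMAD complexes. In B cell precursors the pathway is known to restrain proliferation and survival, and in mature B cells to favour class switching to IgA.

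The transcript of *Cdk8*, the targeted gene, was lower in Cdk8-ko lines without being absent. In DMSO it was at 68.7, 61.8, 63.3 and 65.8 CPM in the wild-type lines and at 35.3, 52.1, 47.1 and 42.8 CPM in the Cdk8-ko lines. All 4 Cdk8-ko lines lay below all 4 wild-type lines, by a log2 fold change of -0.55 (SE 0.14; edgeR, adjusted p = 0.897), with the smallest p that a two-sided exact permutation test of 4 lines against 4 can give (p = 0.0286). With Senexin B it was at 89.4, 56.3, 56.8 and 55.2 CPM in wild-type lines and at 43.9, 61.7, 42.9 and 41.2 CPM in Cdk8-ko lines. There the groups overlapped, since Cdk8-ko line 2 exceeded 3 of the 4 wild-type lines (log2 fold change -0.44, SE 0.22, exact permutation p = 0.114). The count sums reads over the whole gene model, exons outside the deleted part included. Reads of the deleted part were not counted apart, and these libraries do not measure protein. By immunoblot, the study reported CDK8 protein to be missing from leukaemic Cdk8-ko cells recovered from mice. Senexin B left *Cdk8* higher in 3 of 8 lines (log2 fold change 0.04 over both genotypes, SE 0.12, edgeR, adjusted p = 1.00).

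Levels of the 10 genes are compared per kilobase of exon, as means over 16 libraries. *Tgfb1* led with 175 CPM per kilobase (69.6 to 319.6), followed by the signal-transducing *Smad2* at 26.2 (19.97 to 37.8) and *Smad4* at 23.2 (19.3 to 32.2), then *Ski* at 15.8, *Tgfbr2* at 10.8, *Smad7* at 8.68, *Smad3* at 6.02, *Tgfbr1* at 4.58, *Skil* at 2.96 and *Ltbp2* at 1.19 CPM per kilobase. *Tgfb1* was the only one whose range did not overlap that of its neighbour in this order. Every other pair of neighbours overlapped, although *Skil* exceeded *Ltbp2* in 16 of 16 libraries and *Tgfbr2* exceeded *Smad7* in 15. The type II receptor transcript was thus above that of the type I receptor, and *Smad2* above *Smad3*, in these means. *Ltbp2* also varied most widely in proportion, from 0.122 to 3.14 CPM per kilobase.

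**Figure D1:**
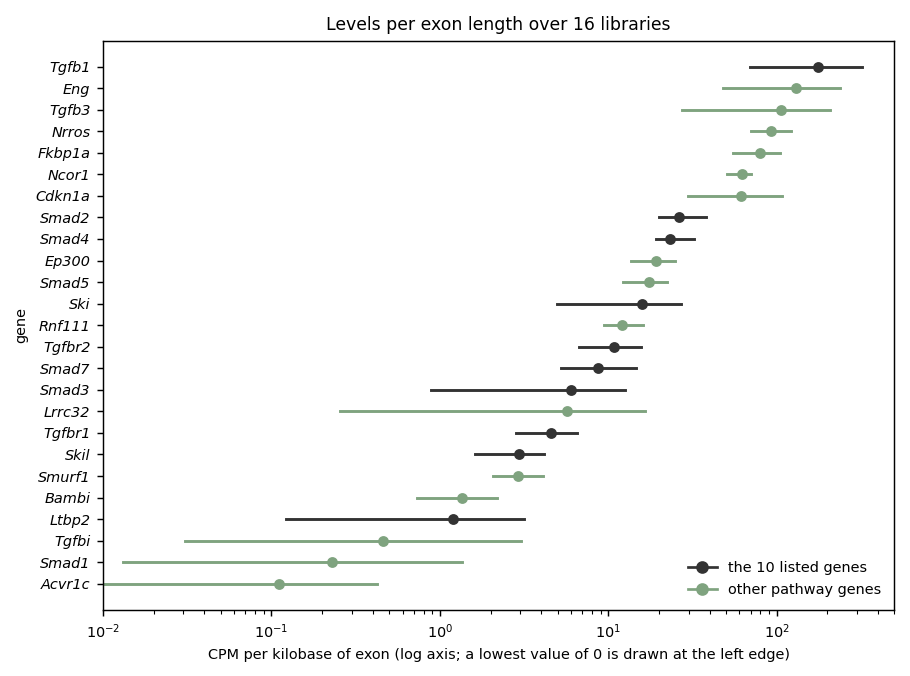
Level of each of the 10 genes (dark) and of the other named pathway genes (green) in CPM per kilobase of exon on a log axis, with points for the mean and bars for the lowest and highest of 16 libraries. Tgfb1 lies at 175 and Ltbp2 at 1.19 CPM per kilobase, with the other 8 of the 10 genes between them.

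Senexin B was compared with DMSO within each line, to ask how the inhibitor shifts the pathway's transcripts. The matrix gene *Ltbp2* and the inhibitory *Smad7* were higher with Senexin B in all 8 lines, among 277 of 14164 genes (1.96%). *Tgfbr2* was higher in 4 of 4 Cdk8-ko lines and in 2 of 4 wild-type lines. The remaining 7 genes were higher in 5 of 8 lines each, so none of them had a shared direction. In the fits without a block for the line, 0 of 12989 genes (0%) passed in wild-type lines, 0 of 13285 (0%) in Cdk8-ko lines and 0 of 14164 (0%) over both genotypes, while 493, 243 and 688 genes had an unadjusted p below 0.05 and DESeq2 called 18, 0 and 16. Nothing is read from these counts about the 10 genes. Standard errors and adjusted p under Senexin B are from these fits, which leave the pairing of libraries by line out, unless a block is named.

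*Ltbp2* encodes a latent TGF-beta binding protein of the extracellular matrix, the member of its family that does not itself bind latent TGF-beta, and was the lowest of the 10. The gene (ENSMUSG00000002020) lies on the minus strand of chromosome 12, from 84783212 to 84876532 in GRCm38. In wild-type lines it was at 4.91, 1.83, 5.36 and 3.29 CPM with DMSO and at 11.5, 6.38, 15.7 and 16.01 CPM with Senexin B. The highest DMSO line stayed below the lowest Senexin B line, and the ratio within a line was 2.35, 3.497, 2.92 and 4.86. In Cdk8-ko lines it was at 0.998, 12.6, 12.4 and 7.81 CPM with DMSO and at 1.38, 25.7, 16.9 and 13.1 CPM with Senexin B. Cdk8-ko line 1 stood far below the other Cdk8-ko lines under both treatments, the groups overlapped, and the ratio within a line was 1.38, 2.04, 1.36 and 1.68. In that line the values rest on 16 and 24 counts, whose 95% Poisson intervals (0.571 to 1.62 and 0.884 to 2.05 CPM) overlap, so its difference was not detectable at this depth.

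The log2 fold change of *Ltbp2* was 1.70 (SE 0.43, n = 4 lines) in wild-type lines, 0.76 (SE 0.90) in Cdk8-ko lines and 1.22 (SE 0.53) over both genotypes. The value in Cdk8-ko lines was 1.13 without the Senexin B library of line 1, 0.38 without its DMSO library and 0.31 without the Senexin B library of line 2. With the line as a block, so that each line is compared with itself, the value was 1.71 (SE 0.24) in wild-type lines, 0.71 (SE 0.16) in Cdk8-ko lines and 1.20 (SE 0.20) over both genotypes. Among all genes, the fits with this block called 45 of 12989 (0.346%), 7 of 13285 (0.0527%) and 134 of 14164 (0.946%), and no call of *Ltbp2* is read from them, since it was selected on these values. Of its 8184 exon bases, 764 (9.34%) are shared with *D030025P21Rik* on the opposite strand, and reads were counted without regard to strand, but *D030025P21Rik* had 0 counts in 16 of 16 libraries.

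*Smad7*, the feedback inhibitor that binds the activated type I receptor (ENSMUSG00000025880, plus strand of chromosome 18, 75367529 to 75395935), was at 26.2, 23.8, 31.2 and 26.3 CPM in wild-type DMSO lines and at 37.1, 50.3, 41.98 and 62.8 CPM with Senexin B. These groups did not overlap, and each wild-type line was higher with the inhibitor, by a ratio of 1.41, 2.12, 1.34 and 2.39. In Cdk8-ko lines the gene was at 30.5, 28.7, 38.8 and 29.5 CPM with DMSO and at 36.7, 42.01, 66.6 and 55.2 CPM with Senexin B. Line 3, the highest of the Cdk8-ko DMSO group, exceeded line 1 with Senexin B, so these groups overlapped, although each line was again higher with the inhibitor, by a ratio of 1.20, 1.46, 1.72 and 1.87. The log2 fold change was 0.85 (SE 0.20, n = 4) in wild-type lines, 0.65 (SE 0.21, n = 4) in Cdk8-ko lines and 0.74 (SE 0.14) over both.

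*Tgfbr2*, the ligand-binding receptor kinase (ENSMUSG00000032440, minus strand of chromosome 9, 116084293 to 116175360), was at 63.9, 68.7, 76.02 and 70.03 CPM in Cdk8-ko DMSO lines and at 77.9, 103, 128 and 124 CPM with Senexin B. The Cdk8-ko groups did not overlap, and the ratio within a line was 1.22, 1.501, 1.69 and 1.77. In wild-type lines it was at 55.1, 115, 97.3 and 78.99 CPM with DMSO and at 90.5, 93.3, 106 and 66.9 CPM with Senexin B. The wild-type groups overlapped throughout: line 1, the lowest with DMSO, was higher by a ratio of 1.64, line 3 by 1.09, and lines 2 and 4 were lower with ratios of 0.809 and 0.847. The log2 fold change was 0.64 (SE 0.16, n = 4) in Cdk8-ko lines, 0.05 (SE 0.24, n = 4) in wild-type lines and 0.34 (SE 0.17) over both. Among wild-type DMSO lines the receptor spread more (SD 25.8 CPM around a mean of 86.7) than among Cdk8-ko DMSO lines (SD 4.99 around 69.7).

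Read by whole groups, 2 of the 10 genes, *Ltbp2* and *Smad7*, had wild-type Senexin B libraries that were all above the wild-type DMSO libraries, beside 123 of 14164 genes (0.868%), and 1 of the 10, *Tgfbr2*, did so in Cdk8-ko lines, beside 120 of 14164 genes (0.847%). The rule used these contrasts, so nothing is read from these shares.

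**Figure D2:**
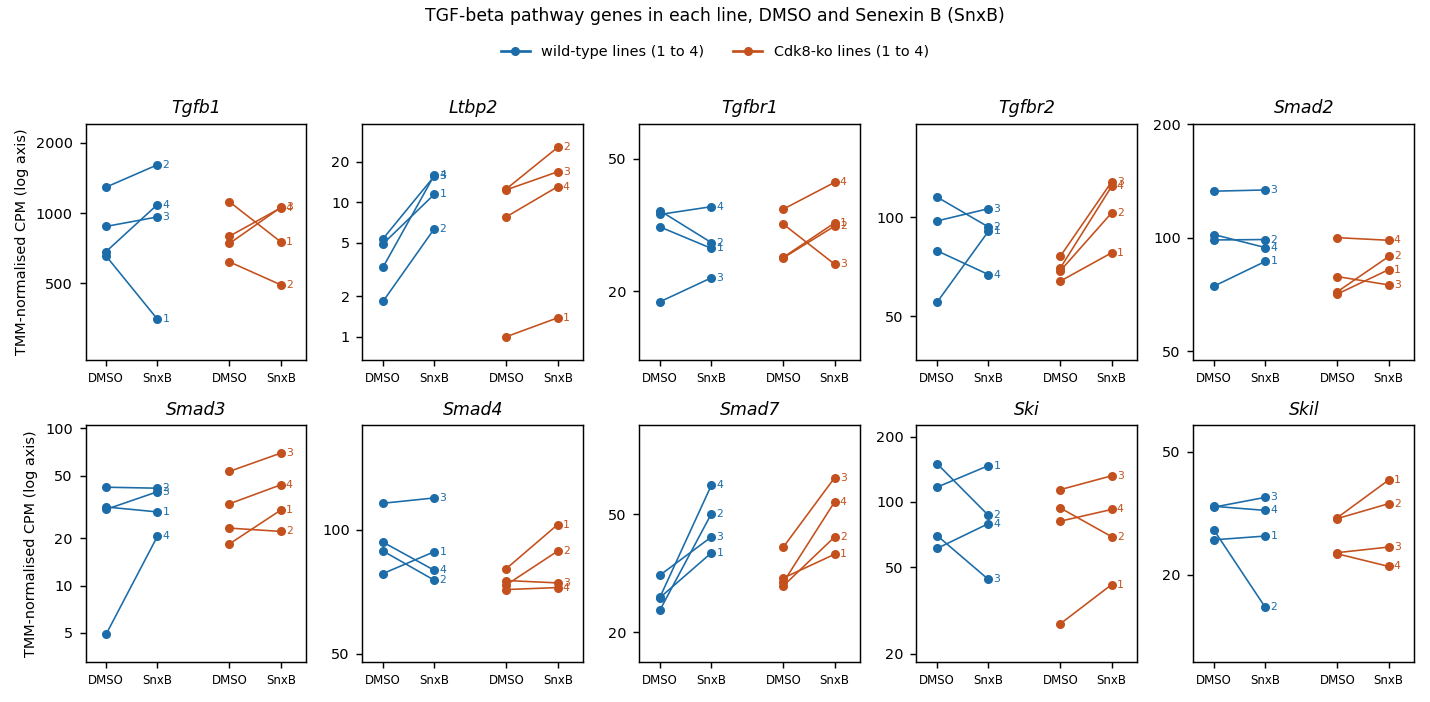
CPM of each of the 10 genes on a log axis, with 1 point per library and a segment joining the DMSO and Senexin B (SnxB) libraries of a line, wild-type lines in blue and Cdk8-ko lines in orange. The segments of Ltbp2 and Smad7 rise in all 8 lines, and those of Tgfbr2 rise in 4 of 4 Cdk8-ko and 2 of 4 wild-type lines.

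The ligand gene *Tgfb1* ranged from 351 CPM (wild-type Senexin B line 1) to 1611 CPM (wild-type Senexin B line 2) and was higher with Senexin B in 3 of 4 wild-type and 2 of 4 Cdk8-ko lines, with a log2 fold change of 0.12 (SE 0.26) over both. Line 1 of each genotype had the lowest ratio, 0.536 in the wild-type and 0.674 in the Cdk8-ko line. *Tgfbr1*, the signalling receptor kinase, lay between 18.6 and 42.5 CPM, with a log2 fold change of 0.04 (SE 0.16). The receptor-regulated *Smad2* lay between 70.9 and 134 CPM and moved little within a line, with ratios from 0.925 to 1.24 and a log2 fold change of 0.06 (SE 0.13). *Smad3*, the other receptor-regulated SMAD, spread from 4.902 to 69.5 CPM. Its lowest value was wild-type DMSO line 4, which was at 20.6 CPM with Senexin B, a ratio of 4.19, against ratios from 0.929 to 1.64 in the other 7 lines. Its log2 fold change was 0.32 (SE 0.36) over both genotypes, 0.27 (SE 0.54) in wild-type and 0.37 (SE 0.43) in Cdk8-ko lines, and with the line as a block 0.43 (SE 0.20), 0.52 (SE 0.34) and 0.36 (SE 0.14).

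*Smad4*, the partner shared by all activated SMADs, lay between 71.6 and 119.5 CPM, with ratios from 0.849 to 1.28 and a log2 fold change of 0.06 (SE 0.12). *Ski* spread from 27.5 to 150.1 CPM and its lines went both ways, with ratios from 0.578 to 1.52 and a log2 fold change of -0.04 (SE 0.32). The related corepressor *Skil* lay between 15.7 and 40.5 CPM, with ratios from 0.564 (wild-type line 2) to 1.32 and a log2 fold change of 0.02 (SE 0.17). Taken by genotype, the fitted values of the 10 genes were above 0 for 6 and below for 4 in wild-type lines (median 0.04), and above 0 for 10 in Cdk8-ko lines (median 0.17), where the medians of all tested genes were 0.02 and 0.01. Of all tested genes, 6870 of 12989 and 6839 of 13285 were above 0. In the Cdk8-ko lines 7 of the 10 fitted values were at most 0.37, and with 1 library left out in turn *Tgfb1*, *Tgfbr1*, *Ski* and *Skil* each fell below 0 in some fit. The rule used these contrasts, so nothing is read from these counts.

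**Figure D3:**
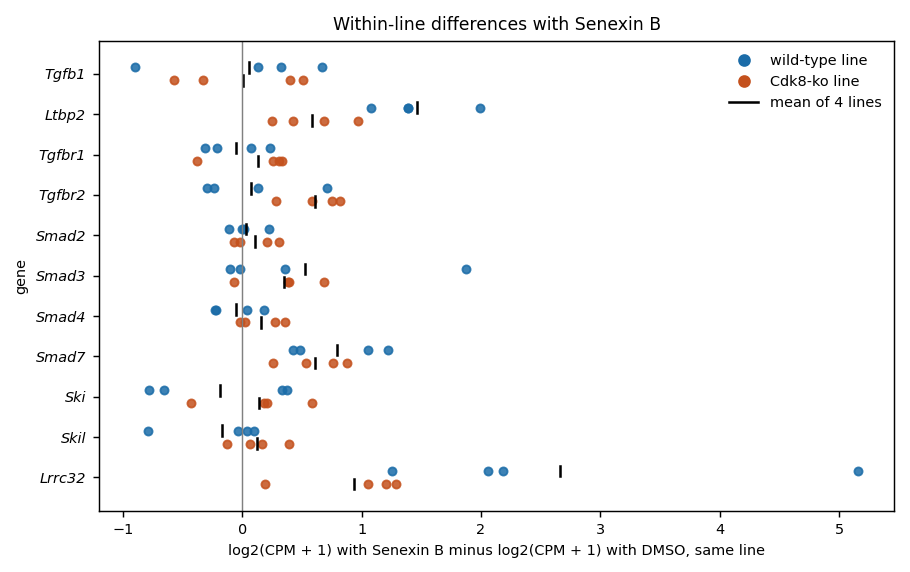
Difference of log2(CPM + 1) between the Senexin B and DMSO libraries of each line for the 10 genes and for Lrrc32, with wild-type lines in blue, Cdk8-ko lines in orange and black ticks for the mean of 4 lines. All 8 points of Ltbp2, Smad7 and Lrrc32 lie above 0.

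Between genotypes in DMSO, the comparison of deleted with intact *Cdk8*, 0 of the 10 genes passed the limits. The libraries of both genotypes overlapped for all 10, whereas 433 of 14164 genes (3.06%) had groups that did not overlap in either direction. At the limits, 1 of 13174 tested genes was called by edgeR (0.00759%), *Sva*, which lies outside the pathway and is named after its values were seen, while 701 had an unadjusted p below 0.05. The call of *Sva* was lost with at least 10 counts in every library, with the replicate block and with any 1 library left out, where 0 genes were called. DESeq2 called 21 genes, with 0 of the 10 among them. By fitted value, 3 of the 10 were above 0 and 7 below (median -0.13, all tested genes 0.00).

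The common-partner *Smad4* was the only one of the 10 with an unadjusted p below 0.05 in this comparison, beside 701 of 13174 genes (5.32%). With the replicate block, or with all 16 libraries in one fit, 0 of the 10 had one. With 1 library left out, 0 to 3 did. *Smad4* was at 78.3, 88.8, 116 and 93.3 CPM in wild-type DMSO lines and at 80.5, 73.5, 75.3 and 71.6 CPM in Cdk8-ko DMSO lines. The Cdk8-ko lines lay close together, and 3 of the 4 were below the lowest wild-type line, with a log2 fold change of -0.32 (SE 0.13; edgeR, adjusted p = 0.897) and an exact permutation p of 0.0571. *Ltbp2* was above the highest wild-type line in 3 of 4 Cdk8-ko lines and below the lowest in the other, with a log2 fold change of 1.14 (SE 0.69; edgeR, adjusted p = 0.908). *Smad2* and *Tgfbr2* were at -0.34 (SE 0.19) and -0.31 (SE 0.21), with adjusted p of 0.908 for both in edgeR, and at least 3 of 4 Cdk8-ko lines were below every wild-type line but the lowest. The other 6 genes had log2 fold changes from -0.33 for *Ski* to 0.25 for *Smad7*.

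With Senexin B in both genotypes, the 10 genes again overlapped between Cdk8-ko and wild-type lines, in a comparison where 149 of 14164 genes (1.05%) did not. By edgeR 0 of 13010 genes (0%) were called, with 202 at an unadjusted p below 0.05, and DESeq2 called 3, with 0 of the 10 among them. Log2 fold changes of the 10 ran from -0.26 for *Tgfb1* (SE 0.44) and *Smad2* (SE 0.18) to 0.34 for *Smad3* (SE 0.38), with a median of 0.09 against 0.00 for all tested genes. *Tgfbr2* was at 0.28 (SE 0.21) and *Ltbp2* at 0.20 (SE 0.70), each with an adjusted p of 1.00 from edgeR. For *Tgfbr2*, 2 of 4 Cdk8-ko lines, lines 3 and 4, were above the highest wild-type line. For *Ltbp2*, Cdk8-ko line 2 was the highest and Cdk8-ko line 1 the lowest of the 8 libraries. With 4 lines against 4, groups that overlap cannot reach an exact permutation p below 0.05. All 10 genes overlapped in both genotype comparisons, so 0 of the 10 could do so. Nothing is read from these tests for the 10 genes.

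Whether the Senexin B difference itself differed between genotypes was fitted as an interaction over all 16 libraries. Of 14164 genes, edgeR called 0 (0%) and DESeq2 0, with 67 at an unadjusted p below 0.05 in edgeR. For *Tgfbr2* the difference was larger in Cdk8-ko lines by 0.59 (SE 0.30) on the log2 scale, and for *Ltbp2* it was smaller, at -0.93 (SE 1.04). Leaving out 1 library moved these values over 0.42 to 0.76 and -1.38 to -0.55. With the line as a block they were 0.54 (SE 0.23) and -1.001 (SE 0.28). Within lines, the log2(CPM + 1) differences of *Ltbp2* in the wild-type lines (1.08, 1.39, 1.39 and 1.99) were all above those in the Cdk8-ko lines (0.25, 0.97, 0.42 and 0.68), whereas those of *Tgfbr2* overlapped (0.71, -0.30, 0.13 and -0.24 against 0.28, 0.58, 0.75 and 0.82). Differences of 294 of 14164 genes (2.08%) did not overlap between genotypes in either direction, from which nothing is read for *Ltbp2*. These are descriptions of selected genes. *Smad7* had an interaction of -0.18 (SE 0.29), with a higher level under Senexin B in 4 of 4 lines of each genotype. The other 7 genes lay between -0.16 for *Tgfb1* and 0.28 for *Skil*. *Cdk8* itself had an interaction of 0.11 (SE 0.26), with an exact permutation p of 0.457 over the differences within a line.

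A wider list of 71 TGF-beta pathway genes, arranged by role, set these genes in context. Of the 71, 55 passed the filter over the 4 groups, 51 had a mean of at least 1 CPM, and 4 had 0 counts in all 16 libraries. By edgeR, 0 of the 71 were called in any of the 6 comparisons, with or without the line as a block. At an unadjusted p below 0.05 there were 1 higher and 2 lower among 51 tested for genotype in DMSO, 3 higher and 1 lower among 50 for genotype with Senexin B, 1 higher and 2 lower among 51 for Senexin B in wild-type lines, 0 among 50 for Senexin B in Cdk8-ko lines, 1 higher and 2 lower among 55 over both genotypes, and 0 among 55 for the interaction. These are 5.88%, 8%, 5.88%, 0%, 5.45% and 0% of the list, beside 5.32%, 1.55%, 3.8%, 1.83%, 4.86% and 0.473% of all tested genes. With the line as a block there were 3 higher and 7 lower in wild-type lines (19.6%, all genes 10.3%), 3 higher and 3 lower in Cdk8-ko lines (12%, all genes 10.3%), 5 higher and 10 lower over both genotypes (27.3%, all genes 16.4%) and 2 higher for the interaction (3.64%, all genes 3.24%). Without the block, the median log2 fold change of the list was -0.04, 0.05, -0.13, 0.08, -0.02 and 0.14 in that order, where all tested genes had 0.00, 0.00, 0.02, 0.01, 0.01 and 0.00.

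Among 8 other ligand genes, 4 passed the filter and *Tgfb3* was the highest, at 106 CPM per kilobase on average. *Tgfb3* was at 306, 446, 204 and 259.6 CPM in wild-type DMSO, 92.7, 280.0, 153 and 230.3 CPM in wild-type Senexin B, 499, 392, 689.7 and 374 CPM in Cdk8-ko DMSO and 338, 303, 703 and 443 CPM in Cdk8-ko Senexin B lines. With Senexin B every Cdk8-ko line was above every wild-type line, whereas in DMSO wild-type line 2 stood among the Cdk8-ko lines. Its log2 fold change between genotypes was 1.24 with Senexin B (SE 0.39; edgeR, adjusted p = 1.00; higher in 4 of 4 lines) and 0.69 in DMSO (SE 0.28; edgeR, adjusted p = 0.897; 4 of 4 Cdk8-ko lines above the wild-type mean). Senexin B gave -0.41 over both genotypes in the fit without a block (SE 0.26; edgeR, adjusted p = 1.00). Within lines, *Tgfb3* was lower in 4 of 4 wild-type and 2 of 4 Cdk8-ko lines.

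Of 10 further latency and activation genes, 5 passed the filter. *Nrros*, which tethers latent TGF-beta on myeloid cells, was the highest at 92.8 CPM per kilobase and lay between 292 and 511 CPM. *Lrrc32*, which encodes GARP, the cell surface tether of latent TGF-beta on regulatory T cells, platelets and activated B cells, was at 8.15, 12.6, 11.5 and 1.19 CPM in wild-type DMSO lines and at 40.5, 31.3, 51.2 and 77.3 CPM in wild-type Senexin B lines. These groups did not overlap, and the difference was widest in line 4. In Cdk8-ko lines it was at 2.25, 14.2, 27.7 and 22.2 CPM with DMSO and at 6.44, 36.03, 58.5 and 25.5 CPM with Senexin B. Here the groups overlapped but each line was higher with the inhibitor, so that *Lrrc32*, like *Ltbp2* and *Smad7*, was higher in 8 of 8 lines. Its log2 fold change was 1.75 over both genotypes (SE 0.58; edgeR, adjusted p = 0.795), 2.59 in wild-type lines (SE 0.62; edgeR, adjusted p = 1.00) and 0.93 in Cdk8-ko lines (SE 0.80; edgeR, adjusted p = 1.00). The interaction was -1.65 (SE 1.06; edgeR, adjusted p = 1.00).

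Among 12 other receptor and coreceptor genes, 10 passed the filter. *Eng*, the coreceptor endoglin, was the highest at 131 CPM per kilobase and lay between 195 and 961 CPM. *Bambi*, a pseudoreceptor without a kinase domain, had the smallest p of this list under Senexin B, with a log2 fold change of 0.33 over both genotypes (SE 0.21; edgeR, adjusted p = 1.00; higher in 5 of 8 lines). For the activin-type receptor gene *Acvr1c*, which had the smallest p of the list for genotype in DMSO, the value was -2.10 (SE 0.95; edgeR, adjusted p = 0.897) at no more than 3.96 CPM in any library, with 4 of 4 Cdk8-ko lines below the wild-type mean. The groups overlapped, since wild-type line 4 was at 0.2801 CPM. *Bmpr2*, named after its values were seen, encodes the type II receptor for BMPs and was lower with Senexin B in 8 of 8 lines. It had a log2 fold change of -0.44 (SE 0.50; edgeR, adjusted p = 1.00) without a block and of -0.56 (SE 0.13; edgeR, adjusted p = 0.0421) with the line as a block, which passed the p limit but not the fold limit. It was the only one of the 71 pathway genes with an adjusted p below 0.05 in any of these fits, beside 373 of 14164 genes (2.63%) in this blocked fit.

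Of 4 other SMAD genes, 2 passed the filter. The BMP-regulated *Smad5* was the highest at 17.5 CPM per kilobase, and with Senexin B its Cdk8-ko lines, at 136, 145, 153 and 148 CPM, were all above the wild-type lines, at 108, 90.9, 125 and 128 CPM. Its log2 fold change there was 0.36 (SE 0.15; edgeR, adjusted p = 1.00; higher in 4 of 4 lines), and 0.23 in DMSO (SE 0.14; edgeR, adjusted p = 0.908), where the groups overlapped and 4 of 4 Cdk8-ko lines were above the wild-type mean of 121 CPM. *Smad1*, its close relative, reached at most 8.54 CPM, in wild-type DMSO line 4.

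All 13 genes for turnover of receptors and SMADs passed the filter. *Fkbp1a*, whose product FKBP12 binds the resting type I receptor, was the highest at 80.1 CPM per kilobase. Its level with Senexin B was lower in 7 of 8 lines (log2 fold change -0.18, SE 0.12; edgeR, adjusted p = 1.00). With the line as a block the value was -0.19 (SE 0.09; edgeR, adjusted p = 0.317). The ubiquitin ligase genes *Rnf111* and *Smurf2*, the second named after its values were seen, were lower with Senexin B in 8 of 8 lines, as were 367 of 14164 genes (2.59%), although the values of *Smurf2* in Cdk8-ko line 2 were equal at the digits printed (42.3 CPM in both). The log2 fold changes were -0.19 (SE 0.10) and -0.20 (SE 0.14), each with an adjusted p of 1.00 in edgeR. *Smurf1*, another SMAD ubiquitin ligase gene, was at -0.26 between genotypes in DMSO (SE 0.23; edgeR, adjusted p = 0.913; 4 of 4 Cdk8-ko lines below the wild-type mean). The groups overlapped, at 13.9, 26.1, 24.2 and 17.8 CPM in wild-type and 18.5, 18.6, 17.5 and 13.99 CPM in Cdk8-ko lines. Wild-type line 1 was the lowest of all.

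Among 8 cofactor and corepressor genes, 7 passed the filter. *Ncor1*, a corepressor bound by SKI, was the highest at 62.1 CPM per kilobase and lay between 652 and 906 CPM. *Ep300*, the acetyltransferase that coactivates SMAD3, was lower with Senexin B in 7 of 8 lines, with a log2 fold change of -0.26 over both genotypes (SE 0.10; edgeR, adjusted p = 0.854). With the line as a block the value was -0.26 (SE 0.09; edgeR, adjusted p = 0.178).

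Of 16 genes known to respond to TGF-beta, 14 passed the filter, and 0 were higher or lower in all 8 lines with Senexin B. Their median log2 fold change with Senexin B was -0.08 in wild-type lines (5 above 0 and 8 below, 1 at an unadjusted p below 0.05) and 0.27 in Cdk8-ko lines (11 above 0 and 1 below, 0 at an unadjusted p below 0.05). All tested genes had medians of 0.02 (6870 above 0 and 6119 below) and 0.01 (6839 above 0 and 6446 below). With the line as a block, 2 of these genes were higher and 2 lower at an unadjusted p below 0.05 in wild-type lines. In Cdk8-ko lines 0 were higher and 1 lower, beside 10.3% of all tested genes in each genotype. Over both genotypes 2 were higher and 2 lower (all genes 16.4%). The 2 higher in wild-type lines, named after their values were seen, were *Id1* (log2 fold change 1.01, SE 0.27) and *Id3* (1.41, SE 0.51). *Id3* was higher in 3 of 4 wild-type lines, most in line 4 (4.13 to 46.4 CPM), and not in line 1 (33.4 to 32.98 CPM). In the other direction, *Spsb1*, also named after its values were seen, was lower in 4 of 4 wild-type lines. It was higher in 3 of 4 Cdk8-ko lines. *Cdkn1a*, the CDK inhibitor gene, was the highest at 60.99 CPM per kilobase. In DMSO it was at 162, 159, 103 and 238 CPM in wild-type and at 66.2, 117, 82.1 and 119 CPM in Cdk8-ko lines. The groups overlapped through wild-type line 3 alone, and the log2 fold change was -0.78 (SE 0.28; edgeR, adjusted p = 0.897; 4 of 4 Cdk8-ko lines below the wild-type mean). *Tgfbi*, a secreted matrix protein gene named for its induction by TGF-beta, was at 1.21, 0.189, 3.54 and 8.12 CPM in wild-type DMSO and 1.296, 0.0818, 0.107 and 0.462 CPM in wild-type Senexin B lines. Lines 3 and 4 gave most of this difference, line 1 went the other way, and the log2 fold change over both genotypes was -1.67 (SE 0.78; edgeR, adjusted p = 1.00; lower in 6 of 8 lines).

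The genes whose level over the 16 libraries was most like that of *Tgfbr2*, *Ltbp2* and *Smad7* were found among 12559 genes by Pearson's r of log2(CPM + 1), which is given with no p because the libraries share lines and treatments. For *Tgfbr2* they were *Top3a* (0.824), *Rap1gds1* (0.802), *Fam118a* (0.791), *Srf* (0.789) and *Tmem201* (0.772). For *Ltbp2* they were *Cct5* (0.921), *Utp14b* (0.913), *Stat5a* (0.868), *Eif3d* (0.866) and *Ano6* (0.866). For *Smad7* they were the chemokine receptor gene *Ccr7* (0.886), *Cables1* (0.857), *BC037034* (0.849), the interferon gamma receptor gene *Ifngr2* (0.847) and *Cecr2* (0.826).

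Promoter windows are shown for *Tgfbr2* and *Ltbp2*, the pair selected for their counts with Senexin B, because SMAD proteins bind the letters CAGAC and their reverse complement GTCTG. The table of RefSeq promoters (GRCm38.p6) held 6 of the 10 genes. In the 250 bases before the start, the window of *Tgfbr2* (chr9:116175364-116175613, minus strand) held 1 match and that of *Ltbp2* (chr12:84876492-84876741, minus strand) held 2, where 42.2% of 32851 windows of this length held at least 1. The capitals below mark these matches, and the last 41 bases of the *Ltbp2* window, which lie inside its gene model in the count files, are left off, so that the printed stretch is chr12:84876533-84876741.

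Tgfbr2: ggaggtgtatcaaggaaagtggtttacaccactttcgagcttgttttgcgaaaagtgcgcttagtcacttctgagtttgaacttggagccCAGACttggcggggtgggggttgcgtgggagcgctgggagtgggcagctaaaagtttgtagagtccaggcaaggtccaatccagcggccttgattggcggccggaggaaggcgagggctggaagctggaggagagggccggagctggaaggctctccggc
Ltbp2: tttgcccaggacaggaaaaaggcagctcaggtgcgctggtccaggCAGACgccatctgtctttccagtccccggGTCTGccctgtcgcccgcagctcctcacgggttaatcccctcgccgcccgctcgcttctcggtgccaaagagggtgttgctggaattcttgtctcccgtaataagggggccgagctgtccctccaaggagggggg

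The palindrome GTCTAGAC, which holds both half-sites of a SMAD dimer, was in neither window and in 0.167% of all windows. *Tgfbr2* held 2 matches of CCAAT (33.8% of windows) and 0 of GGGCGG (32.7%), and *Ltbp2* held 0 and 2. TGACTCA (4.46% of windows) and TATAAA (12.4%) were in neither, each searched on both strands. The share of G and C was 58.4% for *Tgfbr2* and 61.6% for *Ltbp2*, beside a median of 52.4% over all windows. *Tgfb1*, *Ski* and *Smad3* held 0 matches of CAGAC or GTCTG in their windows, with 5, 5 and 2 of GGGCGG. *Tgfbr1* had 2 windows, one with 0 matches of CAGAC or GTCTG (chr4:47352972-47353221, plus strand) and one with 1 (chr4:47385966-47386215, plus strand). A match describes letters in a window and does not show that a factor binds there.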

How the data were processed

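Deposited raw counts per gene were analysed from 16 libraries (4 groups of 4). The reads were single-end, and the authors used Trimmomatic for trimming, STAR for alignment and featureCounts 1.5.1 for counting on GENCODE M13 (GRCm38), per the file headers and the submitters' notes, with no strand option. Library totals and their range stand in the report. Counts were normalised with TMM, filtered with filterByExpr on the groups compared, and tested with the robust quasi-likelihood F test of edgeR 4.0.16 in R 4.3.3, with Benjamini-Hochberg adjustment over all tested genes. Calls needed an adjusted p below 0.05 and a fold change over 2. DESeq2 1.42.0 was the other tool. Exact permutation tests were two-sided on log2(CPM + 1), with 70 arrangements. Tables and figures were made with pandas 2.3.3, scipy 1.17.1 and matplotlib 3.10.9.

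The replicate number was read as the line. Across 14164 genes, with group means removed, same-numbered DMSO and Senexin B libraries had a mean correlation of 0.717 in wild-type lines (0.593 to 0.773; other numbers -0.237) and 0.83 in Cdk8-ko lines (0.772 to 0.868; other numbers -0.274), and 4 of 4 matched best with their own number in each genotype. Between genotypes the same numbers gave a mean of 0.009 in DMSO (-0.154 to 0.273) and 0.104 with Senexin B (-0.136 to 0.412). In each, 1 of 4 matched best with its own number, and the number was not taken as a pair there. Single genes can still split by number in both genotypes. *Bmpr1a*, named after its values were seen, was at 57.3, 84.3, 3.81 and 3.57 CPM in wild-type DMSO lines. In Cdk8-ko DMSO lines it was at 69.1, 81.7, 2.86 and 0.736 CPM. Whether the numbers mark a batch was not tested. The fits used no block in any comparison, which leaves the pairing out of the Senexin B fits, so that their standard errors and p-values include the spread between lines. The replicate block was run as an alternative. It is printed where it changes the number of genes called and for the whole pathway list under Senexin B. Elsewhere it is printed only where the text names it. Among the 120 pairs of libraries no copies were found, the lowest chi-square per gene being 20.8.

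Alternatives were DESeq2, RLE size factors, no filter, at least 10 counts in every library, a replicate block, all 16 libraries in one fit, no fold limit, and each library left out in turn. Their application to *Cdk8* and to the named pathway genes was chosen after seeing the data. The 10 genes, the lists and the tests were chosen with earlier results of these data known. Named are the 10 genes, *Cdk8*, any called pathway gene, the gene of each role list with the highest level per kilobase and those with the smallest p for genotype in DMSO and for Senexin B over both genotypes, and the 5 genes most like *Tgfbr2*, *Ltbp2* and *Smad7*. Other genes are named as markers, for an overlap of gene models, or after their values were seen, as the text says at each.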

Additional observations from a re-analysis of the deposited data

Results flagged for a closer look

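Among 104 groups of 4 libraries (26 genes in 4 groups), 7 held a library whose gap to its neighbour, as a share of the range of the group, was past the critical value of Dixon's test. Chance alone gives about 1 in 20 groups, and none of the 7 concerns the 10 TGF-beta genes. For *Cdk8*, wild-type Senexin B line 1 was highest at 89.4 CPM (share 0.954) and Cdk8-ko Senexin B line 2 was highest at 61.7 CPM (0.867). *Eng* was lowest in Cdk8-ko Senexin B line 2 at 245 CPM (0.863). *Smad1* was highest in wild-type DMSO line 4 at 8.54 CPM (0.878) and in Cdk8-ko DMSO line 2 at 1.75 CPM (0.941). *Rnf111* was highest in Cdk8-ko DMSO line 1 at 134 CPM (0.889), and *Tgfbi* was highest in Cdk8-ko DMSO line 2 at 1.504 CPM (0.835). The cause of these values was not tested.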

How the results depend on the processing

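The number of genes called depended on the tool and on the block. For genotype in DMSO, 1 gene was called, against 21 with DESeq2, 0 with at least 10 counts in every library, 0 with the replicate block, and 0 to 0 with any 1 library left out. For genotype with Senexin B, 0 were called, against 3 with DESeq2, 1 without a filter, and 1 with all 16 libraries in one fit. For Senexin B, DESeq2 called 18 genes in wild-type lines and 16 over both genotypes against 0 in edgeR, where 3 were called without a filter in wild-type lines and 1 with at least 10 counts over both. With the replicate block, 45 were called in wild-type lines, 7 in Cdk8-ko lines and, with the block nested in genotype, 134 over both. Leaving out 1 library gave 0 to 5 over both genotypes, the 5 without Cdk8-ko Senexin B replicate 1. The cause of these differences was not tested. Under the settings that kept every library, 27 counts stayed close to the count reported and 13 did not. With 1 library left out, 55 stayed close and 9 did not.

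For the 10 genes between genotypes, and for 8 of them in the interaction, 32 of 288 log2 fold changes with 1 library left out and 3 of 160 under the other settings had the other sign. The 3 were found with the replicate block: 0.01 for *Tgfbr1* in genotype in DMSO, -0.22 for *Ltbp2* in genotype with Senexin B, and -0.15 for *Smad3* in the interaction. For their other values, which are Senexin B against DMSO and the interactions of *Tgfbr2* and *Ltbp2*, 43 of 352 with 1 library left out and 1 of 180 under the other settings (*Skil* over both genotypes with the replicate block, -0.02) had the other sign. The fits with 1 library left out ranged, for genotype in DMSO, over -0.29 to 0.14 for *Tgfb1*, -0.19 to 0.06 for *Tgfbr1* and -0.13 to 0.51 for *Smad3*. For genotype with Senexin B they ranged over -0.54 to 0.07 for *Tgfb1*, -0.24 to 0.59 for *Ltbp2*, -0.03 to 0.55 for *Smad3*, -0.20 to 0.07 for *Smad4*, -0.10 to 0.21 for *Smad7*, -0.40 to 0.26 for *Ski* and -0.06 to 0.28 for *Skil*. For the interaction they ranged over -0.44 to 0.17 for *Tgfb1*, -0.08 to 0.23 for *Smad2*, -0.26 to 0.47 for *Smad3* and -0.07 to 0.59 for *Ski*. Those that kept their sign ranged, for genotype in DMSO, over 0.87 to 1.51 for *Ltbp2*, -0.48 to -0.16 for *Tgfbr2*, -0.47 to -0.19 for *Smad2*, -0.40 to -0.21 for *Smad4*, 0.14 to 0.32 for *Smad7*, -0.55 to -0.04 for *Ski* and -0.22 to -0.09 for *Skil*, for genotype with Senexin B, over 0.05 to 0.34 for *Tgfbr1*, 0.16 to 0.42 for *Tgfbr2* and -0.34 to -0.10 for *Smad2*, and for the interaction, over 0.06 to 0.39 for *Tgfbr1*, 0.11 to 0.38 for *Smad4*, -0.35 to -0.03 for *Smad7* and 0.09 to 0.43 for *Skil*. Under Senexin B in wild-type lines, all of the 10 but *Ltbp2* and *Smad7* had a fit of the other sign, *Tgfbr2* among them (-0.12 to 0.22). In Cdk8-ko lines *Tgfb1*, *Tgfbr1*, *Ski* and *Skil* had one, and over both genotypes *Tgfb1*, *Tgfbr1*, *Smad2*, *Smad4*, *Ski* and *Skil*. The replicate block changed no call of *Cdk8*, of a pathway gene, or of the 10 genes between genotypes. Between genotypes, where the number was not taken as a pair, it gave -0.56 for *Cdk8* in DMSO.

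Alternatives for *Cdk8* and the named pathway genes were chosen after seeing the data. Of these values 2 had the other sign, both for *Smad1* with Senexin B over both genotypes, which ranged over -1.15 to 0.76 with 1 library left out. Depth limits the lowest genes: *Ltbp2* had 16 to 374 counts per library.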

Other observations

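Some pathway genes were named here after their values were seen, each at an unadjusted p below 0.05 in a genotype comparison and not called. *Acvr1*, a type I receptor gene, was at 10.7, 6.79, 10.5 and 4.39 CPM in wild-type and at 23.7, 13.7, 14.1 and 10.4 CPM in Cdk8-ko Senexin B lines (log2 fold change 0.94, SE 0.37; edgeR, adjusted p = 1.00; 4 of 4 Cdk8-ko lines above the wild-type mean). *Id1*, a target of BMP-regulated SMADs, was at 8.93, 4.26, 1.61 and 16.2 CPM in wild-type and at 2.53, 1.10, 0.971 and 1.18 CPM in Cdk8-ko Senexin B lines (-2.40, SE 0.70; edgeR, adjusted p = 1.00; 4 of 4 below the wild-type mean). *Klf11*, a TGF-beta-inducible repressor gene, was at 9.77, 10.8, 6.81 and 12.96 CPM in wild-type and at 4.93, 4.89, 7.68 and 6.996 CPM in Cdk8-ko DMSO lines (-0.72, SE 0.28; edgeR, adjusted p = 0.897; 4 of 4 below the wild-type mean).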
